A study of Homo sapiens with 6 samples.

Results

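The dual-specificity MAP kinase phosphatases were examined in SW480 cells after knockdown of HPSE, the gene of heparanase. The family was taken as 10 listed genes, DUSP1, DUSP2, DUSP4, DUSP5, DUSP6, DUSP7, DUSP8, DUSP10, DUSP14 and DUSP16, and each was looked up in the table of normalized counts by the Ensembl identifier of its symbol. Of the 10 genes, 9 were found among the 59192 features of the table, and all 9 had a mean of at least 10 normalized counts. DUSP16 was not found under its identifier (ENSG00000111266) and is not analysed here. The genes were grouped by the kinase they act on, as ERK-selective (DUSP5, DUSP6 and DUSP7), p38/JNK-acting (DUSP1, DUSP8, DUSP10 and DUSP16) and others (DUSP2, DUSP4 and DUSP14).

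SW480 is an established cell line from a human colorectal tumour. Both groups carry Cas9 from a lentivirus selected with puromycin, and an EGFP-marked lentiviral guide RNA. SW480-NC carries the control guide, and SW480-45, labelled as the HPSE knockdown, was taken as the line that the study's methods call SW480-KD1. Each group had 3 libraries from independent experiments, with no treatment, and whether the lines were cloned is not given in the sources used here. The paper also made a knockdown line with another guide, but reports sequencing of SW480-KD1 and SW480-NC only. The libraries of a group are therefore cultures of the same line, and the p-values below set the difference of the groups against the spread between such cultures. An effect of HPSE loss cannot be told apart from another effect of the guide or a difference between the lines. In RNA of a whole culture, fewer cells expressing a gene and less RNA per cell cannot be told apart. A normalized count is a read count divided by a size factor of its library.

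MAP kinases (ERK, p38 and JNK) are switched on when a kinase adds phosphate to a threonine and a tyrosine in their activation loop, and dual-specificity phosphatases switch them off by removing both. Many of these phosphatases are made in response to the kinases they act on and so work as negative feedback. In colorectal cancer cells with an activated RAS pathway, DUSP4, DUSP5 and DUSP6 are well-known ERK-responsive genes. The study measured p38 phosphorylation after HPSE knockdown, and the phosphatases that remove this phosphate are among the genes described here.

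Recovered reads ran from 33221323 to 39802365 per library. The guide's target HPSE stood at 136, 172 and 146 normalized counts in SW480-45 and 270, 295 and 246 in SW480-NC, so that the groups did not overlap (log2 fold change −0.83, adjusted p = 0.0547 from limma). These counts are of RNA, and the paper checked the knockdown at the protein level by western blot. Of 6 colon epithelial markers, 5 were found, and their summed level was 101956 to 109653 normalized counts in SW480-45 and 118141 to 123923 in SW480-NC. CDX2, a defining intestinal factor, was low, at 19.0 to 40.3 normalized counts. Of the 5 epithelial markers, 4 were lower in SW480-45 and 1 was higher. EPCAM and CDX2 were at log2 fold changes of −0.09 and −0.26, and neither passed (adjusted p = 0.454 and 0.726 from limma). KRT20, a keratin of mature intestinal epithelium, fell (log2 fold change −0.81, adjusted p = 0.0072 from limma), while KRT8, which makes up most of the sum, was at −0.21 and VIL1, the villin of the brush border, at 0.20, and neither passed (adjusted p = 0.141 and 0.225 from limma). Of 10 markers of leukocytes, endothelium and fibroblasts, 5 were found, and they summed to 265 to 388 normalized counts in SW480-45 and 214 to 273 in SW480-NC, mostly COL1A1. Without COL1A1 the sum was 29.8 to 43.2 in SW480-45 and 9.66 to 26.5 in SW480-NC, and the part of these markers in the results was not tested. COL1A2 was at 0 in at least 5 of the 6 libraries.

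None of the phosphatases differed between SW480-45 and SW480-NC at an adjusted p under 0.05. In the test with limma, 0 of 9 passed, beside 0.802% of the 21703 features tested, and 4 of 9 had an unadjusted p under 0.05, beside 16.2% of all features. On the recovered reads, edgeR and DESeq2 also gave 0 of 9 at an adjusted p under 0.05, beside 136 and 767 of the 21703 features. Each gave 3 of 9 at an unadjusted p under 0.05. The share of all features at that threshold was not taken for edgeR and DESeq2, so these counts have no background beside them. The libraries of the groups did not overlap for 2 phosphatases that were higher in SW480-45, DUSP10 and DUSP4, beside 11.4% of all features. They did not overlap for 3 that were lower, DUSP5, DUSP7 and DUSP14, beside 12.0% of all features. With 3 libraries against 3, an exact permutation test of a single gene cannot go below p = 0.1. The median log2 fold change of the 9 genes was 0.05, beside −0.00 over all features tested, and it ranged from −0.40 for DUSP5 to 0.99 for DUSP10.

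Among the p38/JNK-acting phosphatases, DUSP10 (ENSG00000143507), also known as MKP5, showed a log2 fold change of 0.99, while those of DUSP1 and DUSP8 were close to 0. DUSP10 dephosphorylates p38 and JNK in preference to ERK. Its gene lies on the minus strand of chromosome 1, from 221701424 to 221742176 in GRCh38 (GENCODE 29). DUSP10 had 75.9, 88.5 and 71.6 normalized counts in SW480-45 and 50.2, 27.0 and 43.5 in SW480-NC. Every SW480-45 library was above every SW480-NC library, and SW480-NC replicate 2 was the lowest. The values rest on 72, 98 and 76 reads in SW480-45 and 48, 28 and 41 in SW480-NC. The mean was 78.7 ± 8.78 (SD, n = 3) in SW480-45 and 40.2 ± 11.9 (SD, n = 3) in SW480-NC. The log2 fold change was 0.99 (standard error 0.26), a fold of 1.99 with a 95% confidence interval of 1.30 to 3.04 (unadjusted p = 0.0062, adjusted p = 0.141 from limma). With each library left out in turn it stayed between 0.73 and 1.17, and the unadjusted p was under 0.05 in 6 of 6 fits. The adjusted p ranged from 0.0605 in DESeq2 to 0.273 over the other settings tried, and from 0.176 to 0.365 with a library left out, so DUSP10 was never called.

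The promoters of the 3 measured p38/JNK-acting genes are shown because these genes share their class, while their log2 fold changes ran from 0.05 to 0.99. None of the 3 was called, and a difference between the genes was not tested. The bases are from RefSeq on GRCh38.p14, read 5′ to 3′ on the minus strand up to the annotated start, and for DUSP10 up to the first base of a GENCODE exon. The RefSeq start of DUSP8 matched no GENCODE 29 transcript. Capitals mark the letters TGACGTCA, the cyclic AMP response element (CRE) bound by CREB and ATF factors, and GGGCGG, the GC box bound by SP1, on either strand. DUSP10 is shown at chr1:221742177-221742339, DUSP1 at chr5:172771196-172771445 and DUSP8 at chr11:1572272-1572521.
DUSP10: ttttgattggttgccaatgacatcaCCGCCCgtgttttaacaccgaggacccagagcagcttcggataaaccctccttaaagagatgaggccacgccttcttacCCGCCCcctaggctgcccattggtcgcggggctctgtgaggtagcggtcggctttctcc
DUSP1: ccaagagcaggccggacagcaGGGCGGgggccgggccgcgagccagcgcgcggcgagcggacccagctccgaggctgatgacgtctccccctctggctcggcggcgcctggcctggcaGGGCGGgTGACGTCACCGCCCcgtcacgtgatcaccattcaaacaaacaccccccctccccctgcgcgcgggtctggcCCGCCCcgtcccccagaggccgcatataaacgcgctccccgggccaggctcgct
DUSP8: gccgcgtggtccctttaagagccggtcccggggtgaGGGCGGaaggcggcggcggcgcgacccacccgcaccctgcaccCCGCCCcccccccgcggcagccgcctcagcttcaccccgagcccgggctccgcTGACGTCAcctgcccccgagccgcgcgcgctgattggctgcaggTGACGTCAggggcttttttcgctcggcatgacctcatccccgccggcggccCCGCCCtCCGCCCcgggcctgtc

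TGACGTCA was found in 1.65% of 35116 promoter windows of 250 bases before a start. It occurred once in the window of DUSP1, beginning at −125 from the start, and a GC box begins right after it at −117. In the window of DUSP8 it occurred at 2 places, beginning at −118 and −74. Neither window of DUSP10, at the upstream start or at the internal start, held these letters. GGGCGG, which 42.6% of the windows hold, occurred at 3 places in the full window of the upstream DUSP10 start and at 4 in each of the other genes. Windows were matched for 8 of the 10 phosphatases, all but DUSP4 and DUSP5. None of the 8 held the AP-1 letters TGANTCA (6.57% of all windows) or the ETS letters CCGGAAGT (3.42%). None held the EGR letters GCGTGGGCG (0.72%) or the CArG box of serum response factor (1.16%). The window of DUSP6, from 89352502 to 89352751, lay inside its annotated gene, whose upstream end is at 89353271. The sequence before that end was not searched. In the window of DUSP2, only 34 bases came before a GENCODE exon. Like that of DUSP8, the starts of DUSP7 and DUSP16 matched no GENCODE transcript. The motifs searched do not share letters with one another in these windows, and a match is a description of the sequence only.

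DUSP1 (ENSG00000120129), also known as MKP1, is an immediate early gene whose nuclear product acts on p38, JNK and ERK. It had 291, 231 and 301 normalized counts in SW480-45 and 280, 272 and 238 in SW480-NC. The groups overlapped, and SW480-45 replicate 2 was the lowest of the 6 libraries. The log2 fold change was 0.05 with a 95% confidence interval of −0.28 to 0.39 (adjusted p = 0.889 from limma). DUSP8 (ENSG00000184545) had 422, 415 and 316 normalized counts in SW480-45 and 474, 334 and 307 in SW480-NC. Its highest and its lowest value both came from SW480-NC. DUSP8 had a log2 fold change of 0.06 with a 95% confidence interval of −0.39 to 0.51 (adjusted p = 0.905 from limma), so that a difference of up to 1.43-fold upward or down to 0.763-fold lies within the interval. Both genes turned sign in some of the fits that left out a library.

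Summed per kilobase of exon, the p38/JNK-acting genes gave 262, 235 and 242 normalized counts per kb in SW480-45 and 259, 217 and 199 in SW480-NC, and the groups overlapped. DUSP10 made up 9.96%, 12.9% and 10.2% of this sum in SW480-45 and 6.66%, 4.29% and 7.49% in SW480-NC. DUSP1 and DUSP8 together made up most of this sum in every library, and DUSP16, the remaining gene of the class, is not part of it.

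Among the ERK-selective phosphatases, DUSP5 and DUSP7 were lower in SW480-45 without reaching the adjusted threshold, and DUSP6 overlapped between the groups. DUSP7 (ENSG00000164086), also known as MKPX, is a cytoplasmic ERK phosphatase, and its gene lies on the minus strand of chromosome 3, from 52048919 to 52056550. It had 986, 951 and 856 normalized counts in SW480-45 and 1262, 1145 and 1072 in SW480-NC. Each SW480-45 library was below each SW480-NC library. Its mean was 931 ± 67.0 (SD, n = 3) in SW480-45 and 1160 ± 95.6 (SD, n = 3) in SW480-NC, or 80.3% of the control. Its log2 fold change was −0.32 (standard error 0.10), with a 95% confidence interval of −0.55 to −0.08 (unadjusted p = 0.0146, adjusted p = 0.197 from limma). The unadjusted p of DUSP7 was under 0.05 in 6 of 6 fits with a library left out.

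DUSP5 (ENSG00000138166), a nuclear ERK phosphatase that also anchors ERK in the nucleus, had 447, 490 and 401 normalized counts in SW480-45 and 560, 511 and 711 in SW480-NC. The groups did not overlap, and SW480-45 replicate 2 and SW480-NC replicate 2 were nearest to each other. The mean was 446 ± 44.5 (SD, n = 3) in SW480-45 and 594 ± 105 (SD, n = 3) in SW480-NC. On the log2 scale DUSP5 was at −0.40 (standard error 0.15), with a 95% confidence interval of −0.75 to −0.06 (unadjusted p = 0.0276, adjusted p = 0.247 from limma). Its unadjusted p stayed under 0.05 in 3 of the 6 fits with a library left out, and was above it without SW480-45 replicate 1, SW480-45 replicate 3 or SW480-NC replicate 3.

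DUSP6 (ENSG00000139318), also known as MKP3, is a cytoplasmic phosphatase specific for ERK and a widely used readout of ERK activity. It had 1349, 1742 and 1180 normalized counts in SW480-45 and 1333, 1236 and 1264 in SW480-NC. The SW480-45 libraries held both the highest and the lowest of the 6 values. The log2 fold change was 0.14 with a 95% confidence interval of −0.19 to 0.47 (adjusted p = 0.667 from limma), and without SW480-45 replicate 2 it was −0.02. The exons of DUSP6 overlap those of the antisense gene AC024909.2, which had a mean of 35.7 normalized counts, and whether the counting kept strands is not given in the sources used here, so that the reads of the pair cannot be told apart. Summed per kilobase, the ERK-selective genes gave 637, 732 and 560 normalized counts per kb in SW480-45 and 725, 665 and 735 in SW480-NC, so that the groups overlapped. The ratio of this sum to that of the p38/JNK-acting genes was 2.43, 3.12 and 2.32 in SW480-45 and 2.80, 3.07 and 3.69 in SW480-NC, which also overlapped.

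**Figure D1:**
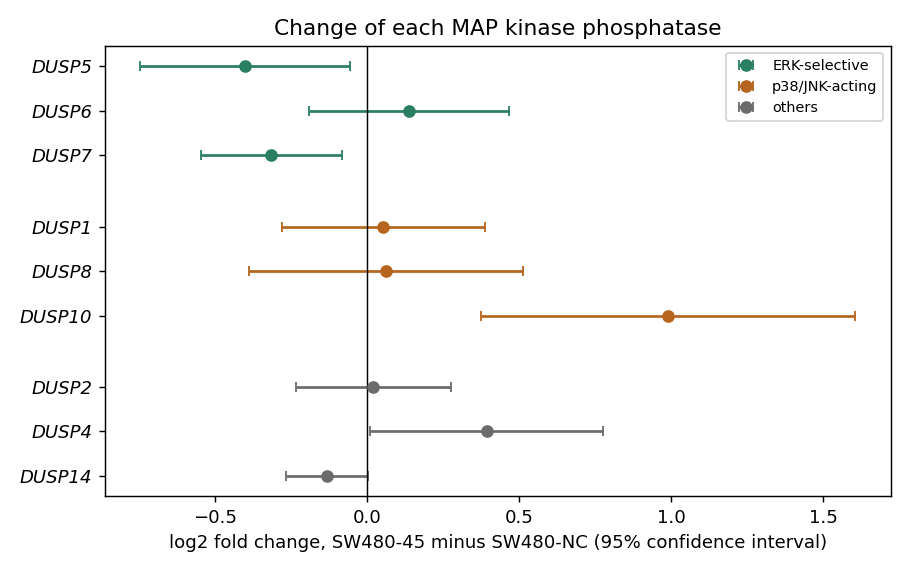
Log2 fold change of the 9 phosphatases, SW480-45 minus SW480-NC, with 95% confidence intervals from limma, in green for ERK-selective, orange for p38/JNK-acting and grey for other members. The intervals of DUSP5, DUSP7, DUSP10 and DUSP4 lie to a side of 0 before adjustment, and that of DUSP10 is the widest, from 0.37 to 1.60.

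Of the other phosphatases, DUSP4 (ENSG00000120875), also known as MKP2, is a nuclear phosphatase of ERK and JNK. It had 134, 134 and 114 normalized counts in SW480-45 and 107, 101 and 82.7 in SW480-NC. The groups did not overlap. The mean was 127 ± 11.4 (SD, n = 3) in SW480-45 and 96.9 ± 12.6 (SD, n = 3) in SW480-NC. For DUSP4 the log2 fold change was 0.39 with a 95% confidence interval of 0.01 to 0.78 (unadjusted p = 0.0457, adjusted p = 0.297 from limma). The unadjusted p was under 0.05 in 2 of the 6 fits with a library left out and in 4 of the 11 other settings, and edgeR gave an unadjusted p of 0.0516.

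DUSP14 (ENSG00000276023), also known as MKP6, is a small phosphatase without the docking domain of the classical family members. It had 11540, 11849 and 11043 normalized counts in SW480-45 and 12247, 12435 and 13072 in SW480-NC. The groups did not overlap, although the difference was small beside the level. The log2 fold change was −0.13 (standard error 0.06) with a 95% confidence interval of −0.27 to 0.00 (unadjusted p = 0.0522, adjusted p = 0.313 from limma). DUSP2 (ENSG00000158050), also known as PAC1, is an inducible nuclear phosphatase best known from leukocytes. It had 581, 566 and 511 normalized counts in SW480-45 and 541, 498 and 598 in SW480-NC. The groups overlapped over their whole range, and the log2 fold change was 0.02 with a 95% confidence interval of −0.24 to 0.28 (adjusted p = 0.949 from limma).

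Levels of different genes were compared per kilobase of exon, using the union of the exons in GENCODE 29, which may differ from the gene models of the authors. DUSP14 had the highest level in SW480-NC, at 5036 ± 173 (SD, n = 3) normalized counts per kb. DUSP2 at 282 ± 25.9 and DUSP6 at 276 ± 10.7 (SD, n = 3) normalized counts per kb came next, and their libraries overlapped. DUSP6 also overlapped with DUSP5 at 227 ± 40.0, and DUSP5 with DUSP7 at 205 ± 16.9 (SD, n = 3) normalized counts per kb. DUSP1 followed at 130 ± 11.3 and DUSP8 at 80.6 ± 19.4 (SD, n = 3) normalized counts per kb, and each was apart from its neighbours in this order. DUSP10 at 13.8 ± 4.09 and DUSP4 at 13.4 ± 1.74 (SD, n = 3) normalized counts per kb were lowest and overlapped. In SW480-45 these were 27.0 ± 3.01 and 17.5 ± 1.57 (SD, n = 3) normalized counts per kb, and their libraries did not overlap. DUSP6, at 307 ± 62.2, and DUSP5, at 171 ± 17.0 (SD, n = 3) normalized counts per kb, also lay apart in SW480-45.

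**Figure D2:**
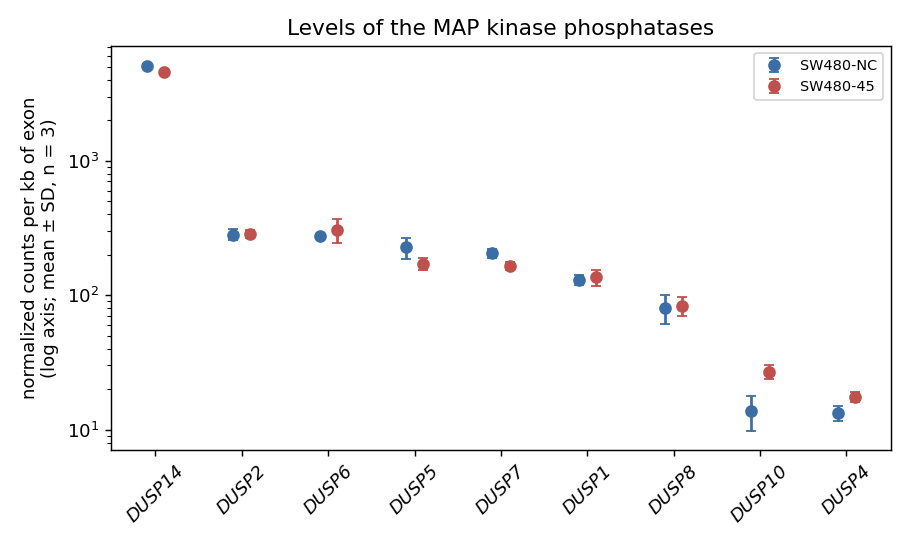
Level of each phosphatase in normalized counts per kb of exon, on a log axis, as the mean ± SD of 3 libraries in SW480-NC (blue) and SW480-45 (red), ordered by the level in SW480-NC. DUSP14 stands at 5036 normalized counts per kb in SW480-NC, while DUSP10 and DUSP4 stand at 13.8 and 13.4.

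The other genes of the pathways were read from lists, beside the phosphatases. Of the RAS, RAF, MEK and ERK genes, 9 of 10 were tested and 0 passed the adjusted threshold, beside 0.802% of all features. Their median log2 fold change was 0.02, and BRAF was not found under its identifier. MAPK3, which encodes ERK1, was at 0.39 and NRAS at −0.31 (both unadjusted p under 0.05, adjusted p = 0.219 and 0.150 from limma). Of all features, 16.2% had an unadjusted p under 0.05. Of the p38 and JNK kinases with their activators and effectors, 11 of 14 were tested and 0 passed, with a median of 0.02. MAPK12, MAPK13 and MAPKAPK5 were not found under their identifiers, so their levels are not known. MAP2K6, a kinase that activates p38, had 85.4, 89.4 and 97.0 normalized counts in SW480-45 and 56.5, 55.0 and 57.3 in SW480-NC, and the groups did not overlap (log2 fold change 0.68, adjusted p = 0.116 from limma). MAP2K3, which also activates p38, was at −0.26 with overlapping groups (adjusted p = 0.346 from limma). MAPK14, p38α itself, had 3012, 1056 and 2993 normalized counts in SW480-45 and 914, 1031 and 1368 in SW480-NC, so that SW480-45 replicate 2 lay within the control range (log2 fold change 0.96, adjusted p = 0.287 from limma). Without that library the log2 fold change of MAPK14 was 1.46 with an adjusted p of 0.0447 from limma, and this was the only 1 of the 6 fits with a library left out that passed. In the other fits it ran down to 0.71, without SW480-45 replicate 1, with an adjusted p of up to 0.532. MAPK10 was at 1.17 on 0.966 to 34.3 normalized counts, with overlapping groups (adjusted p = 0.575 from limma), and it was at 0.12 without SW480-NC replicate 2, at 0.74 with a pseudocount of 5 and at 0.88 in edgeR.

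Of 15 genes known as feedback or output of the ERK pathway, 11 were tested, with a median log2 fold change of 0.02. SPRY4, SPRED1, ETV5 and EPHA2 were not found under their identifiers, so their levels are not known. At an adjusted p under 0.05, 1 of the 11 rose and 1 fell, beside 72 that rose and 102 that fell among the 21703 features (0.802% in all). EGR1, an immediate early transcription factor, rose from 1923, 1651 and 1849 normalized counts in SW480-NC to 3005, 2922 and 3256 in SW480-45 (log2 fold change 0.76, adjusted p = 0.0159 from limma). FOSL1, an AP-1 subunit, fell from 1881, 1674 and 1693 to 1004, 646 and 728 normalized counts (log2 fold change −1.16, adjusted p = 0.0343 from limma). ETV4, an ETS factor, was at 0.40 (adjusted p = 0.133 from limma, 0.0372 in DESeq2). With a library left out, EGR1 passed the adjusted threshold only without SW480-NC replicate 3 and FOSL1 only without SW480-45 replicate 1, and the adjusted p in the remaining fits reached 0.0721 for EGR1 and 0.134 for FOSL1. With no intensity trend and with the replicate block neither gene passed. MMP1, a collagenase, fell from 295, 277 and 295 normalized counts in SW480-NC to 52.7, 86.7 and 79.1 in SW480-45 (adjusted p = 0.010 from limma), but it missed the threshold when SW480-NC replicate 1 was left out (adjusted p = 0.0644 from limma).

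Of 18 other dual-specificity phosphatases, 12 were tested and 0 passed, beside 0.802% of all features. Of these, 4 were higher and 8 lower, beside 10700 higher and 11003 lower among the 21703 features, and their median log2 fold change was −0.10. DUSP18, DUSP21, DUSP26 and SSH1 were not found under their identifiers. STYX, a catalytically inactive relative that binds ERK, was at −0.44 (unadjusted p = 0.0131, adjusted p = 0.189 from limma). DUSP9, the remaining ERK-selective cytoplasmic member, was below the minimum, at 3.18 to 10.8 normalized counts. The tyrosine phosphatases that bind MAP kinases, PTPN7 and PTPRR, were at 0.25 and 0.65 and did not pass (adjusted p = 0.795 and 0.371 from limma), and PTPN5 was at 0 in 4 of the 6 libraries.

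**Figure D3:**
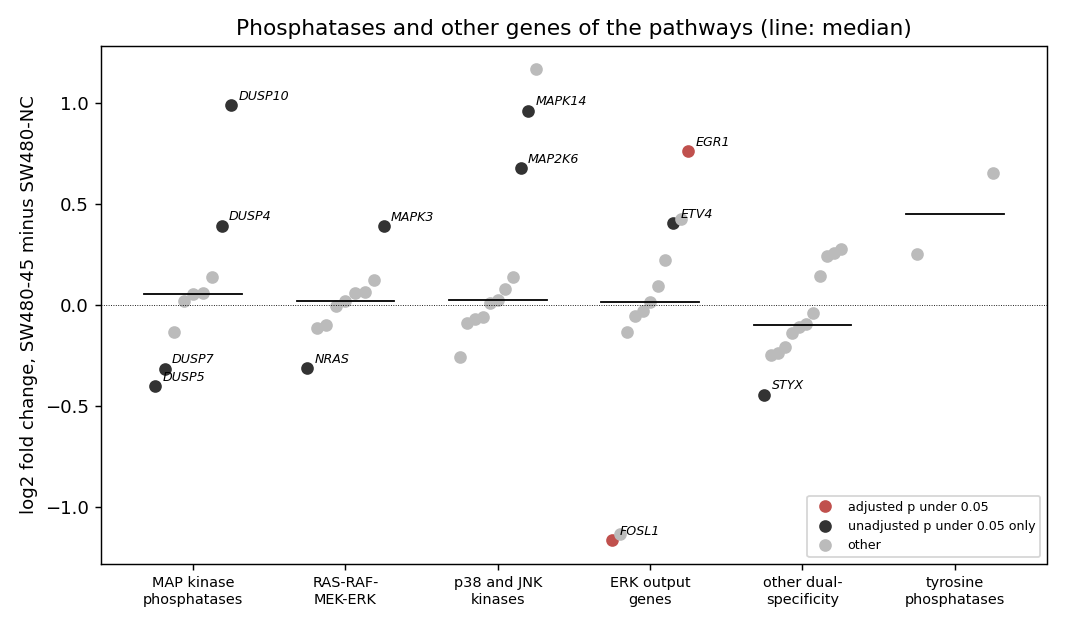
Log2 fold change, SW480-45 minus SW480-NC, of each tested gene of the phosphatase list and of 5 pathway lists, with a line at the median of each list. Red points passed an adjusted p under 0.05 (EGR1 and FOSL1), dark points had an unadjusted p under 0.05 only, and no phosphatase is red.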

How the data were processed

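RNA of 3 SW480-45 and 3 SW480-NC cultures was sequenced on an Illumina HiSeq instrument. The authors deposited a signal for each gene or assembled locus, which from its values is a read count scaled by a factor for each library. The submitters' processing notes name bcl2fastq, HISAT2, DESeq2 and GRCh38, without roles, and the study's methods name Cuffdiff. The assembler and annotation are not given in the sources used here. Each library was divided by its smallest value above 0, and 100% of the quotients were whole (tolerance 0.01). All 6 columns matched a sample by name. Symbols were found for 25595 of 25927 Ensembl identifiers.

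The log2(normalized count + 1) values were compared with limma 3.58.1 (R 4.3.3, intensity trend, Benjamini-Hochberg adjustment) on 21703 features whose mean reached 10. For genes with few reads, fold changes on that scale depend on the pseudocount. As alternatives, the recovered reads were tested in edgeR 4.0.16 and in DESeq2 1.42.0. The steps were tested on simulated data. All 10 phosphatases, HPSE, MAPK14 and MMP1 were to be named, with up to 6 genes of each pathway list by unadjusted p under 0.05 and its largest change. Members and lists were chosen with earlier results of these data known. Replicates were compared and differed by more than sampling noise, at a mean chi-square of 21.7 to 26.6 over the features tested. A mean can be raised by a small part of the features, so it does not give the noise of a typical gene. Plots used matplotlib 3.10.9 (Python 3.11.15).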

Additional observations from a re-analysis of the deposited data

How the results depend on the processing

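The 0 phosphatases called at an adjusted p under 0.05 stayed 0 in all 11 other settings and in all 6 fits that left out a library. The count of all features called was 174, and it was 11 without an intensity trend, 12 with the replicate block, 136 in edgeR, 767 in DESeq2, and 29 to 93 with a library left out (29 without SW480-NC replicate 1). The 4 phosphatases with an unadjusted p under 0.05 from limma became 2 with the replicate block, and 2 to 4 with a library left out. They were 2, DUSP7 and DUSP10, without SW480-45 replicate 1 and without SW480-NC replicate 3. With Ensembl genes only the count rose to 5, as DUSP14 was added, and it was 3 or 4 in the remaining settings. The share of all features at that threshold was not taken for these fits, so the counts have no background beside them. The replicate numbers are shared by name only. The deviations of same-numbered libraries correlated at 0.0025, −0.020 and 0.0074 across features. Signs turned for phosphatases near 0 only. DUSP2 was at −0.0063 under quantile normalization. With a library left out, DUSP2 ran from −0.043 to 0.088, DUSP1 from −0.020 to 0.17, DUSP8 from −0.063 to 0.25 and DUSP6 from −0.017 to 0.26. The cause was not tested. HPSE passed the adjusted threshold in 5 of the 11 settings, and MMP1 in 9. With a library left out, HPSE passed in 0 of the 6 fits (adjusted p from 0.0777 to 0.199 from limma) and MMP1 in 5. No scaling moved the median of all features by over 0.1. DUSP10 rests on 28 to 98 reads a library.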
